A study of Sus scrofa with 15 samples.

Results

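The bile acid and organic anion transporters of the pig liver were described here from 10 listed genes, namely SLC10A1, SLCO1B3, SLCO2B1, ABCB11, ABCB4, ABCC2, ABCC3, ABCG5, ABCG8 and ATP8B1. Their rows were found through the gene symbol that a gene-name table pairs with each Ensembl pig identifier. Of the 10 genes, 8 had a row among the 31908 genes of the count table, and all 8 were among the 12774 genes with enough reads to test. ABCB4 and SLCO1B3 are not paired with an identifier in that table and were not analysed here.

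The libraries came from livers of growing male Duroc x Large White x Landrace piglets, all of one cross and one sex. The LPS group had been injected intraperitoneally with lipopolysaccharide (LPS), the endotoxin of the outer membrane of Gram-negative bacteria, at 80 µg/kg, and the control (CON) group with sterile saline, and livers were taken 4 h later. Each group gave 3 libraries of fragmented polyadenylated RNA, set aside as the input of an m6A immunoprecipitation. The labels number the replicates and do not say that each is a separate piglet, so the p-values measure only the spread between these libraries.

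Hepatocytes take up bile acids and other organic anions from sinusoidal blood across the basolateral membrane and secrete them across the canalicular membrane into bile. SLC10A1 (NTCP) carries conjugated bile acids in together with sodium. The organic anion transporting polypeptides, including SLCO2B1 and SLCO1B3, take up organic anions without sodium. At the canaliculus, ABCB11 (the bile salt export pump), ABCC2 (MRP2), ABCB4 and the sterol transporter formed by ABCG5 and ABCG8 move bile salts, conjugated anions, phosphatidylcholine and sterols into bile, and ATP8B1 flips aminophospholipids to the inner leaflet of that membrane. ABCC3 (MRP3) exports conjugated anions back across the basolateral membrane into blood.

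The CON libraries held between 5927348 and 10351491 counted reads and the LPS libraries between 4348478 and 19967417. Levels are given as CPM, that is, counts relative to library size after scaling by TMM, edgeR's trimmed-mean method. Counts of the 8 transporters ranged from 17 to 2369 per library, and counting error alone lay between 2.05% and 24.3% of a value. The 15 hepatocyte markers, among them ALB and TF, were all tested and together made up 76638 to 94620 CPM in CON libraries and 64183 to 127067 CPM in LPS libraries. The marker FGB alone held 44960 CPM in LPS replicate 3, and the SERPINA1 row held at most 7.2 CPM in any library. LPS replicate 2 held the highest LPS level of all 8 transporters. It did so for 36.1% of all tested genes and for 62.5% of those whose 3 LPS values all lay below the 3 CON values. Its lead was small for ABCC3 (27.8 against 27.7 CPM in LPS replicate 3). It was also small for SLCO2B1 (91.6 against 86.6 CPM) and ATP8B1 (29.6 against 27.5 CPM), both against LPS replicate 1. Values that rest on LPS replicate 2 are also given without it. Leaving out the highest LPS library lowers the LPS mean by construction. A lower value or a call without LPS replicate 2 is therefore no separate support.

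Compared with the CON group, 7 of the 8 transporters had a mean level in the LPS group that was lower by 2.22-fold (ABCG5) to 3.44-fold (SLC10A1), and ATP8B1 differed by 1.09-fold. In the edgeR quasi-likelihood comparison all 8 log2 fold changes were below 0, where 49.5% of all tested genes were, and their median was -1.27 against 0.01 over all tested genes. The 3 LPS libraries all lay below the 3 CON libraries for 6 transporters, a pattern that 9.8% of tested genes had, and for 6 the unadjusted p was below 0.05 in the lower direction, as for 6.33% of tested genes. The former 6 and the latter 6 were in each case SLC10A1, SLCO2B1, ABCB11, ABCG5, ABCG8 and ABCC3.

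None of the 8 was called at a Benjamini-Hochberg adjusted p below 0.05 with a fold change above 1.5. Few genes of any kind were: 0.0548% of tested genes were called higher and 0% lower. The calls depended on the tool and on 1 library. limma-voom called none of the 8, while DESeq2 called SLC10A1 and ABCC3 lower, with 1.15% of genes called lower over the whole table. edgeR without the filter on low counts called SLC10A1, SLCO2B1, ABCB11 and ABCC3, with 1.48% called lower. In that setting the standard errors of the 8 were nearly alike, at 0.39 to 0.45, and that of ABCB11 was 0.41 against 0.75 with the filter. Without LPS replicate 2, edgeR called SLC10A1, ABCB11, ABCC2, ABCG8 and ABCC3, with 3.45% called lower. Lower values of the 8 in that setting follow from leaving out their highest LPS library. Without CON replicate 1 the number at an unadjusted p below 0.05 was 3, made up of SLC10A1, ABCC3 and ABCG8.

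**Figure D1:**
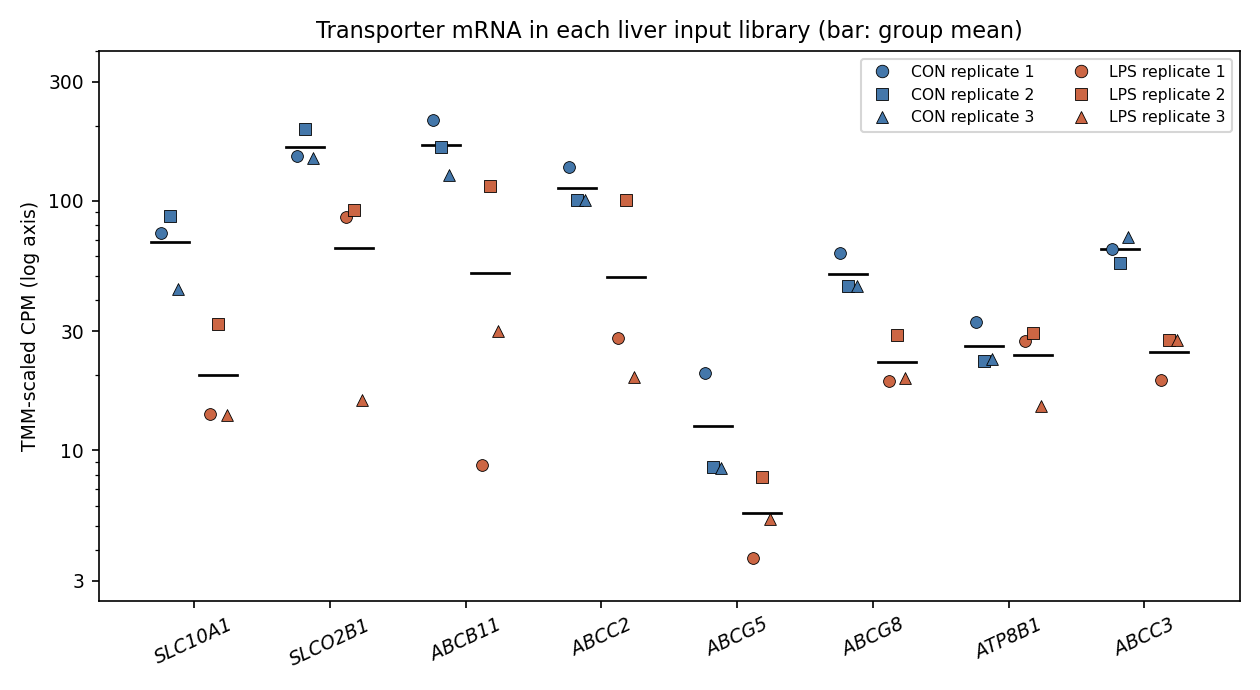
TMM-scaled CPM of the 8 transporters in each library on a log axis, with CON libraries in blue, LPS libraries in orange and a bar at each group's mean. LPS points lie below all CON points for 6 of the 8 genes, ABCC2 and ATP8B1 are the exceptions, and the square of LPS replicate 2 is the highest LPS point for every gene.

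Among the uptake carriers, SLC10A1 had a CON mean 3.44 times the LPS mean, close to the 3.28 times of ABCB11, and which of these 2 genes had the larger fold change depended on the setting. This gene (ENSSSCG00000002313, chromosome 7, 93397602 to 93421985, minus strand, in the coordinates of the deposited table) stood at 74.4, 86.9 and 44.5 CPM in CON replicates 1, 2 and 3, and at 14, 32.1 and 13.9 CPM in LPS replicates 1, 2 and 3. The highest LPS value was 72.1% of the lowest CON value, so the groups did not overlap. Means were 68.6 ± 21.8 CPM in CON and 20 ± 10.5 CPM in LPS (SD, n = 3). The log2 fold change was -1.78 with a standard error of 0.43, which did not pass the threshold (edgeR adjusted p = 0.172), while DESeq2 gave -1.75 with an adjusted p of 0.00939. Leaving out LPS replicate 2 gave -2.30 with an adjusted p of 0.00857 in edgeR.

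A limit on SLC10A1 is that 3372 of its 5884 exon bases also lie in exons of SRSF5, a splicing factor gene on the opposite strand. The sources used here do not give the strand setting of the counting, and without strand the reads of the 2 genes cannot be told apart. SRSF5 had 491, 266 and 278 counts in CON replicates 1 to 3 and 87, 193 and 755 counts in LPS replicates 1 to 3, whereas SLC10A1 had 833, 556 and 450 counts in CON and 64, 196 and 203 counts in LPS. In LPS replicate 3, the most deeply sequenced library, SRSF5 thus had its highest count.

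SLCO2B1 (ENSSSCG00000014851, chromosome 9, 9432674 to 9476674, plus strand) overlaps no other gene in the table. It stood at 151, 195 and 149 CPM in the CON libraries and at 86.6, 91.6 and 15.9 CPM in LPS replicates 1, 2 and 3. All LPS values lay below all CON values, but LPS replicate 3 was far below the other LPS libraries, which differed from each other by little. Means were 165 ± 25.9 CPM and 64.7 ± 42.3 CPM (SD, n = 3). The log2 fold change of -1.36 with a standard error of 0.56 missed the threshold (edgeR adjusted p = 0.363). Leaving out LPS replicate 3 gave -0.87 (adjusted p = 0.324).

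At the canaliculus, ABCB11, through which most bile salt leaves the hepatocyte, varied most among the LPS libraries. The gene (ENSSSCG00000015926, chromosome 15, 75400766 to 75486403, minus strand, no overlapping gene) stood at 212, 165 and 127 CPM in CON replicates 1, 2 and 3 and at 8.72, 115 and 30.1 CPM in LPS replicates 1, 2 and 3. The groups did not overlap, though LPS replicate 2 reached 90.7% of the lowest CON value, and the highest LPS value was 13.2 times the lowest, against 1.67 times among CON libraries. The lowest value rests on 40 reads, with an exact Poisson 95% interval of 6.23 to 11.9 CPM, which covers counting error only. Counting error was therefore much smaller than the distance between LPS libraries. The log2 fold change was -1.71 with a standard error of 0.75 (edgeR adjusted p = 0.391). With LPS replicate 2 left out the value was -3.08 (adjusted p = 0.00924), and with LPS replicate 1 left out -1.21 (adjusted p = 0.626).

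ABCC2, the canalicular exporter of conjugated bilirubin and glutathione conjugates, did not separate the groups. The gene (ENSSSCG00000010543, chromosome 14, 110955656 to 111078873, plus strand) stood at 137, 101 and 101 CPM in the CON libraries and at 28.1, 101 and 19.7 CPM in LPS replicates 1, 2 and 3. LPS replicates 1 and 3 were far below every CON library and LPS replicate 2 was within the CON range. Its log2 fold change of -1.19 with a standard error of 0.56 did not pass (edgeR unadjusted p = 0.06, adjusted p = 0.426). Without LPS replicate 2, its highest LPS library, the value was bound to be lower, and -2.24 passed (adjusted p = 0.00706). Leaving out LPS replicate 3 gave -0.79 (adjusted p = 0.563) and leaving out LPS replicate 1 gave -0.90 (adjusted p = 0.78). The exons of ABCC2 share no base with those of another gene in the table.

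ABCG5 and ABCG8, which form the obligate heterodimer that secretes cholesterol and plant sterols into bile, lie head to head on chromosome 3 with 16 bases between them. ABCG8 (ENSSSCG00000008453, 96594778 to 96616229, minus strand) stood at 61.6, 45.6 and 45.6 CPM in the CON libraries and at 19, 29.1 and 19.6 CPM in the LPS libraries. Here the groups were clearly apart, the highest LPS value being 63.9% of the lowest CON value, and the spread within each group was small. The log2 fold change was -1.18 with a standard error of 0.31 (edgeR adjusted p = 0.212).

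ABCG5 (ENSSSCG00000035912, 96616246 to 96656893, plus strand) had the lowest level of the 8, per length as well, with 20.5, 8.59 and 8.5 CPM in CON replicates 1, 2 and 3 and 3.71, 7.85 and 5.33 CPM in LPS replicates 1, 2 and 3. The groups did not overlap, but LPS replicate 2 was at 92.3% of the lowest CON value and CON replicate 1 stood above all other libraries. The LPS replicate 1 value rests on 17 reads (exact Poisson 95% interval 2.16 to 5.93 CPM). A log2 fold change of -1.15 with a standard error of 0.47 (edgeR adjusted p = 0.36) became -0.60 (adjusted p = 0.787) without CON replicate 1. ABCG5 shares 873 exon bases with DYNC2LI1 on the opposite strand and 236 with an unnamed gene on its own strand, and ABCG8 shares 366 with LRPPRC on the opposite strand, so some reads of these genes could belong to their neighbours.

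ATP8B1, a flippase that keeps the outer leaflet of the canalicular membrane free of aminophospholipids, was the transporter in which the groups lay closest. The gene (ENSSSCG00000004921, chromosome 1, 162933131 to 163063032, plus strand, no overlapping gene) stood at 32.8, 22.8 and 23.3 CPM in the CON libraries and at 27.5, 29.6 and 15.1 CPM in the LPS libraries. LPS replicates 1 and 2 were within the CON range and LPS replicate 3 was below it. Its log2 fold change was -0.14 with a standard error of 0.35 (edgeR adjusted p = 0.906), and its sign changed to 0.05 without CON replicate 1 and to 0.13 without LPS replicate 3. TMEM30A, the subunit that ATP8B1 needs to leave the endoplasmic reticulum, had a log2 fold change of -0.35 with a standard error of 0.37 (adjusted p = 0.746).

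ABCC3, the basolateral exporter, had the narrowest spread and the smallest unadjusted p of the 8. This gene (ENSSSCG00000017561, chromosome 12, 26920821 to 26978363, plus strand) stood at 64.3, 56.4 and 71.6 CPM in the CON libraries and at 19.2, 27.8 and 27.7 CPM in the LPS libraries. The highest LPS value was 49.3% of the lowest CON value, the widest gap between groups among the 8 genes. Means were 64.1 ± 7.6 CPM and 24.9 ± 4.95 CPM (SD, n = 3), a ratio of 2.57. The log2 fold change was -1.36 with a standard error of 0.30 (edgeR unadjusted p = 0.00113, adjusted p = 0.133), and DESeq2 called it (-1.32, adjusted p = 0.0117). ABCC3 and ANKRD40 on the opposite strand share 149 exon bases.

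**Figure D2:**
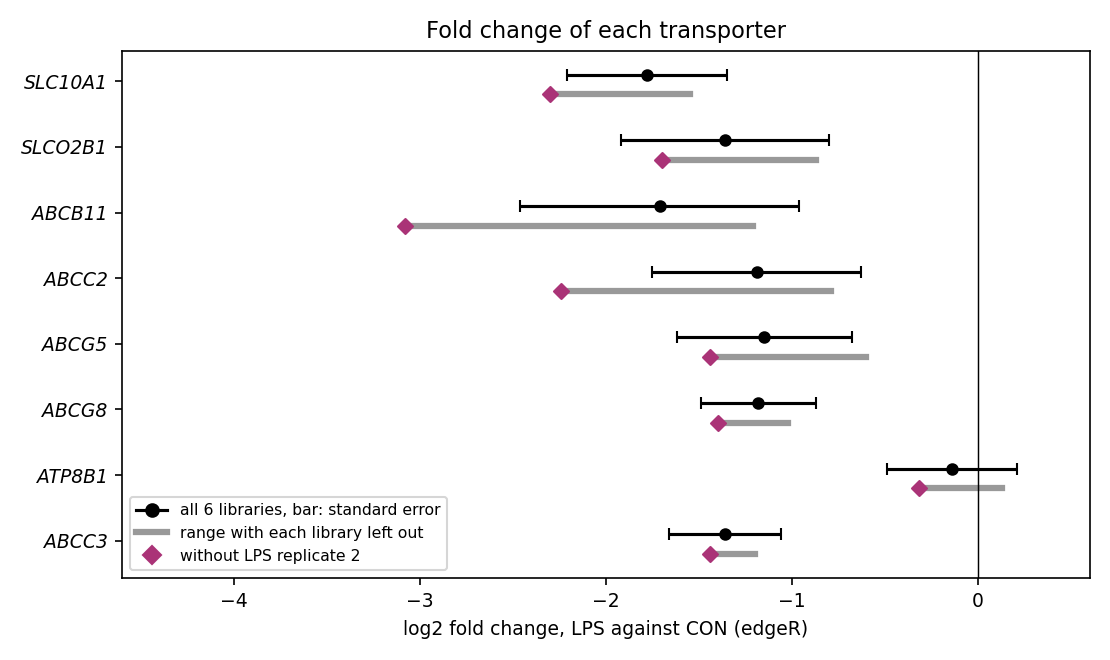
edgeR log2 fold change of LPS against CON for each transporter (black point, with its standard error), the range obtained when each of the 6 libraries is left out in turn (grey), and the value without LPS replicate 2 (diamond). ABCB11 has the widest range, from -3.08 to -1.21, ABCC3 one of the narrowest, and only ATP8B1 crosses 0.

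Per length, with CPM divided by the exon length in kb so that genes can be compared, SLCO2B1 had the highest CON level at 23.4 ± 3.67 CPM per kb (SD, n = 3). It was followed by ABCB11 at 18.2 ± 4.61, ABCC2 at 14.8 ± 2.74, SLC10A1 at 11.7 ± 3.7, ABCC3 at 9.67 ± 1.15, ABCG8 at 8.96 ± 1.62, ATP8B1 at 4.49 ± 0.96 and ABCG5 at 2.37 ± 1.3 CPM per kb. Neighbours in this order overlapped in their CON ranges from SLCO2B1 down to ABCG8, while ABCG8 was separate from ATP8B1 and ATP8B1 from ABCG5. These levels use all exon bases of a gene, although SLC10A1 shares 3372 of its 5884 with SRSF5. ABCC3, ABCG5 and ABCG8 share smaller parts with other genes. How reads in shared bases were counted is not given, so the place of SLC10A1 above all is uncertain in both groups. ABCG5 was also the lowest in the LPS group, at 1.07 ± 0.396 CPM per kb, although its protein partner ABCG8 stood at 3.97 ± 1 CPM per kb there.

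In the LPS group, SLCO2B1 still had the highest mean (9.16 ± 5.99 CPM per kb), SLC10A1 was the seventh in order instead of the fourth (3.39 ± 1.78), and ATP8B1 the fourth instead of the seventh (4.11 ± 1.34). The LPS ranges of the 7 genes other than ABCG5 all overlapped, so that order is a description. Summed over the 8 genes, the level was 105, 95.6 and 80 CPM per kb in the CON libraries and 30.9, 60 and 21.7 CPM per kb in LPS replicates 1, 2 and 3. The composition of that sum also differed among LPS libraries. ABCB11 contributed 21.8%, 18.7% and 17.1% of it in CON, and 3.06%, 20.7% and 15.1% in LPS replicates 1, 2 and 3. SLCO2B1 contributed 20.4%, 28.9% and 26.4% in CON, and 39.7%, 21.6% and 10.4% in LPS. The shares of these carriers thus differed between LPS replicates 1 and 3. In level, both libraries lay below every CON library for all transporters but ATP8B1.

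**Figure D3:**
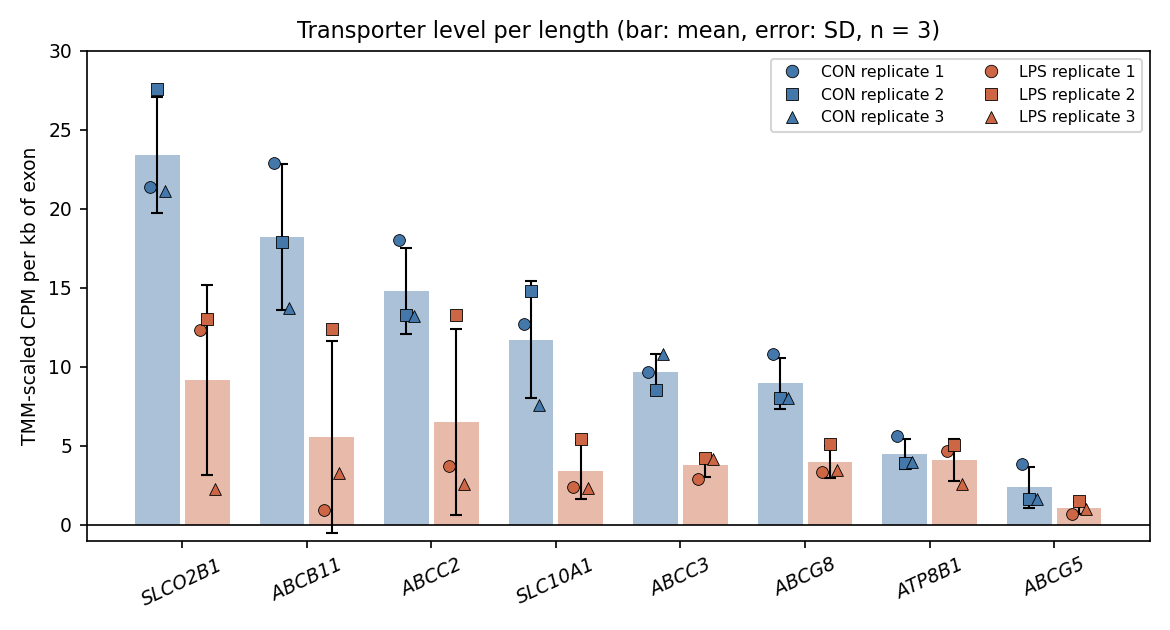
TMM-scaled CPM per kb of exon for each transporter, in the order of the CON means, with CON in blue, LPS in orange, bars at group means, error bars of 1 SD (n = 3) and points for libraries. SLCO2B1 at 23.4 CPM per kb leads in CON, and the LPS error bars are widest for ABCB11, SLCO2B1 and ABCC2, where the LPS libraries lie far apart.

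Ratios between transporters within a library depend on library scaling only through the pseudocount of 0.5, and 4 were compared between groups with a two-sided exact permutation test on log2(CPM + 0.5), in which 3 against 3 libraries cannot give a p below 0.1. The log2 ratio of ATP8B1 to ABCB11 was -2.67, -2.83 and -2.42 in the CON libraries and 1.60, -1.94 and -0.97 in LPS replicates 1, 2 and 3. All LPS ratios lay above all CON ratios, a mean difference of 2.20 on the log2 scale (exact p = 0.1, adjusted p = 0.4 over the 4 ratios). The difference was 1.18 without LPS replicate 1 and 2.95 without LPS replicate 2. Per length, too, ATP8B1 (4.69 CPM per kb) stood above ABCB11 (0.945 CPM per kb) in LPS replicate 1, and in no other library.

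The other ratios also compare mRNA levels only, since transport was not measured. The log2 ratio of the uptake carrier SLC10A1, with its SRSF5 limit, to ABCB11 was -1.31 ± 0.33 in CON and -0.76 ± 1.27 in LPS (SD, n = 3). That is a difference of 0.55 (exact p = 0.7, adjusted p = 0.9). For basolateral ABCC3 to canalicular ABCC2 the log2 ratio was -0.80 ± 0.30 in CON and -0.63 ± 1.17 in LPS, a difference of 0.17 (exact p = 0.9, adjusted p = 0.9). Neither difference was larger than the spread among the LPS libraries. ABCG5 to ABCG8 was -2.09 ± 0.45 and -1.94 ± 0.23, a difference of 0.15 (exact p = 0.8, adjusted p = 0.9), and this sterol pair was the only one whose ratio spread no more in LPS than in CON.

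**Figure D4:**
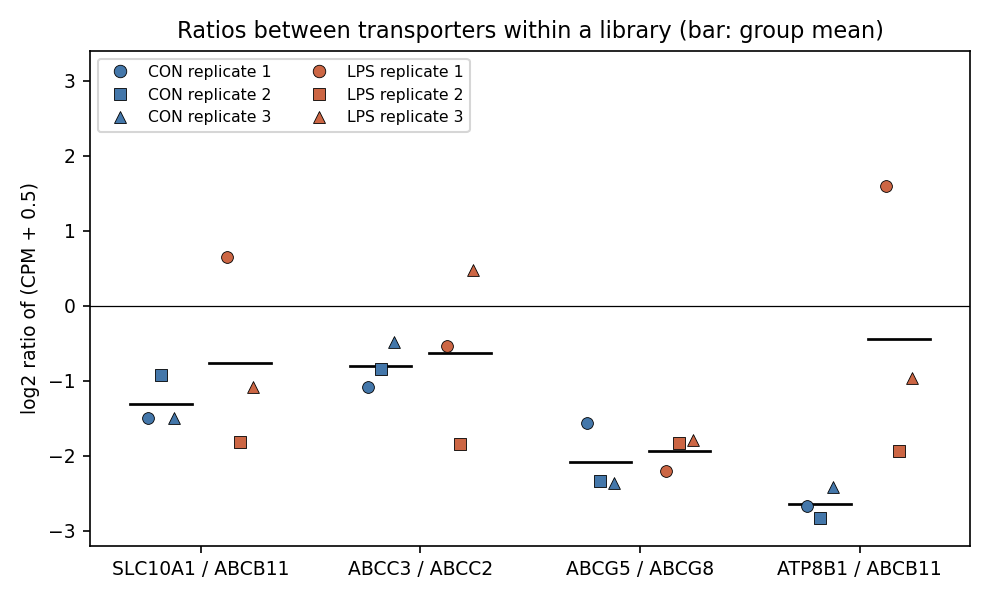
Log2 ratio of (CPM + 0.5) between pairs of transporters in each library, with a bar at each group mean. The ATP8B1 to ABCB11 ratios of the LPS libraries all lie above those of the CON libraries, while the other 3 ratios overlap between groups.

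The other genes of bile formation were taken from 4 lists that hold 102 different genes, of which 79 were tested, with SLC27A5 in 2 of the lists and counted once here. None was called higher or lower in edgeR or limma-voom, and their median log2 fold change was -0.28, against 0.01 over all tested genes. At an unadjusted p below 0.05, 7 of the 79 were higher and 13 lower, where 6.18% of all tested genes were higher and 6.33% lower, and these shares are also the background for the counts of each list given next. Calls appeared in these lists under other settings. DESeq2 called 2 higher and 4 lower (2.02% and 1.15% of all genes), edgeR without the filter on low counts 3 and 12 (2.28% and 1.48%), and edgeR without LPS replicate 2 called 5 and 14 (3.76% and 3.45%). Without LPS replicate 3, 1 gene was called lower.

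Of 33 other transporters of bile compounds, organic anions and cations, 21 were tested, 1 had an unadjusted p below 0.05 in the higher and 3 in the lower direction, and the median log2 fold change was -0.43. The anion carrier SLCO1A2 had a log2 fold change of -1.43 (edgeR adjusted p = 0.283) and the efflux pump ABCC6 one of -1.56 (adjusted p = 0.231). Above 0 were 5 of the 21, of which SLCO4A1 had the highest value at 2.24 (adjusted p = 0.375), with 21 CPM in LPS replicate 3 against at most 3.59 CPM in every other library. The other 4 had log2 fold changes of at most 0.35. SLC51B, a subunit of the basolateral bile acid exporter OSTα/β, was low, at 5.18, 0.156 and 1.98 CPM in CON and 2.4, 0.491 and 0.819 CPM in LPS. Its partner SLC51A had at most 8 counts in any library and was under the filter. SLCO1B1 and ABCC4 are not paired with an identifier and were not analysed here.

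Among 18 genes of bile acid synthesis and conjugation, 12 were tested, with 1 at an unadjusted p below 0.05 in the higher and 5 in the lower direction and a median of -0.61. CYP7A1, the rate-limiting enzyme of the classical pathway from cholesterol, had the most negative fold change of the named genes. It stood at 16.4, 21.2 and 16 CPM in CON and at 0.436, 2.29 and 0.273 CPM in LPS, where LPS replicates 1 and 3 rest on 2 and 4 reads. The groups were widely separated, with a log2 fold change of -4.25 and a standard error of 0.68 (edgeR adjusted p = 0.0668). Log2 fold changes of -1.58 for ACOX2, the peroxisomal side-chain oxidase (adjusted p = 0.221), and -1.05 for AKR1D1, the steroid 5β-reductase (adjusted p = 0.307), did not pass. HSD3B7, which acts after CYP7A1, lay in the other direction at 1.06 (adjusted p = 0.279), with 111 to 151 CPM in CON and 156 to 313 CPM in LPS.

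All 26 listed regulators of bile transporters were tested, with 3 at an unadjusted p below 0.05 in each direction and a median of 0.21. NR1H4 (FXR), the bile acid receptor that is known to drive ABCB11, stood at 62.5, 47.2 and 32.7 CPM in CON and 18.5, 29.3 and 16 CPM in LPS. LPS values were all below CON values, with a log2 fold change of -1.16 and a standard error of 0.37 (edgeR adjusted p = 0.256). NR1I2 (PXR), the xenobiotic receptor, had -1.33 (adjusted p = 0.347), NR1I3 (CAR) -0.80 (adjusted p = 0.608) and PPARA, the fatty acid receptor, -0.92 (adjusted p = 0.329).

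NR0B2 (SHP), the repressor that FXR induces, had a log2 fold change of 0.56 (edgeR adjusted p = 0.502), with 23 to 36.9 CPM in CON and 35.3 to 52.9 CPM in LPS. The hepatocyte factor HNF4A had 0.61 (adjusted p = 0.637), and its groups overlapped. VDR, the vitamin D receptor, was low in CON at 0.268 to 1.09 CPM and stood at 1.96 to 3 CPM in LPS, a log2 fold change of 1.99 (adjusted p = 0.253). Of the 26 regulators, 15 were above 0 and 11 below.

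Of 26 genes of the canalicular membrane, its junctions and its membrane traffic, 21 were tested, with 2 at an unadjusted p below 0.05 in each direction and a median of -0.27. STX3, a syntaxin of apical vesicle fusion, had 2.43 (edgeR adjusted p = 0.2), and the tight junction gene CLDN2 had 1.85 (adjusted p = 0.273) with overlapping groups. ANPEP, a canalicular peptidase, had -1.15 (adjusted p = 0.221) and CLDN1, another tight junction gene, -1.60 (adjusted p = 0.353). None of these passed the threshold.

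In bulk liver RNA, fewer cells of a type and less RNA per cell cannot be told apart, so marker genes were set beside the transporters as the median of log2(CPM + 0.5) minus the gene's CON mean. For the 8 transporters this median was -1.61, -0.65 and -1.78 in LPS replicates 1, 2 and 3. For the 15 hepatocyte markers it was -0.53, -0.52 and -0.17, and their median log2 fold change was -0.19, with 10 of 15 below 0. Among the LPS libraries, the hepatocyte median was highest in replicate 3, where the transporter median was lowest but close to that of replicate 1. LPS replicates 1 and 3 each held the lowest LPS level of 4 transporters. The part of hepatocyte content in the transporter values was not tested.

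Of the 15 hepatocyte markers, ASGR1 was at an unadjusted p below 0.05 in the lower direction and FGB and ARG1 in the higher direction, and none was called. Scaling each library by the median change of the hepatocyte markers was an alternative added after the data were seen. It left the 7 transporters other than ATP8B1 at -0.69 to -2.03 and put ATP8B1 at 0.17. Scaling by the median level of those markers gave -0.57 (ATP8B1) to -2.77 (ABCB11). These values are differences between group means of log2 level, not edgeR fold changes, and cannot be set directly beside the edgeR values. Unscaled, ABCB11 stood at -4.16, -0.51 and -2.43 relative to its CON mean in LPS replicates 1, 2 and 3. On this measure, scaling by the median change raised every transporter and scaling by the median level lowered every transporter.

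Cholangiocyte markers, 8 of 10 tested, lay on the other side: 31.1 to 41.9 CPM summed in CON and 44.9 to 72.5 CPM in LPS, the median log2 fold change being 0.70, with 6 of 8 above 0. Neutrophil markers, 5 of 10 tested, summed to 15 to 25.3 CPM in CON and 73.9 to 308 CPM in LPS, and S100A8 was called higher (log2 fold change 5.34, edgeR adjusted p = 0.0371). LPS replicate 2, which had the highest transporter levels of the LPS group, had the lowest neutrophil sum in that group. Kupffer cell or macrophage markers, all 11 below 0, had medians of -1.02, -0.12 and -0.46 in LPS replicates 1, 2 and 3, and endothelial markers -0.82, -0.03 and -0.67. These 2 lists, and the stellate list at -0.58, 0.42 and -0.67, were highest in LPS replicate 2, as the transporters were. T or NK cell markers stood at -0.81, -0.05 and 0.09. No marker with a row was at 0 in every library, and the part of other cells in the transporter values was not tested.

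**Figure D5:**
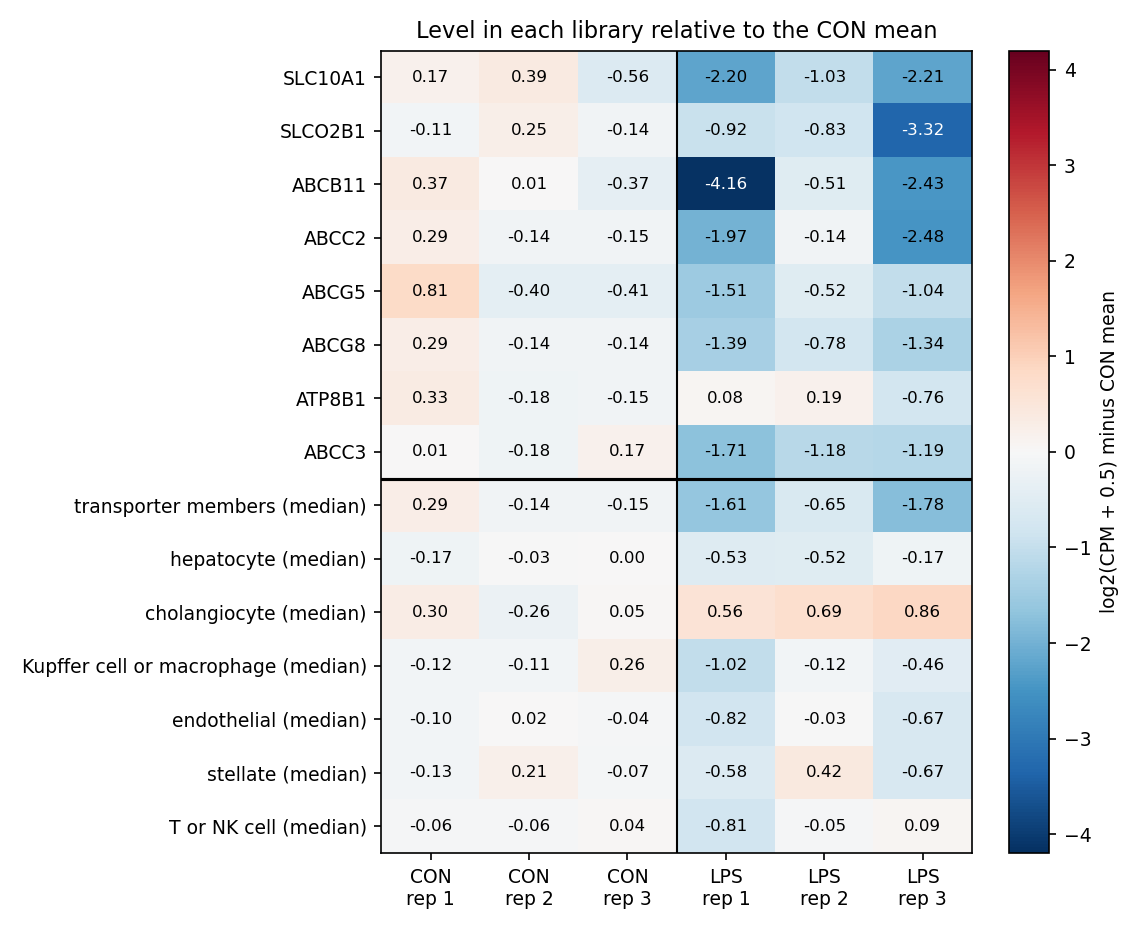
Log2(CPM + 0.5) minus the CON mean in each library, for the 8 transporters (above the line) and for the median of the transporters and of each marker list (below it), with blue for lower and red for higher. ABCB11 in LPS replicate 1 (-4.16) and SLCO2B1 in LPS replicate 3 (-3.32) are the lowest cells. Hepatocyte medians stay between -0.53 and 0.00. The neutrophil list, with medians of 3.23, 2.16 and 3.25 in LPS replicates 1, 2 and 3, is not drawn.

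The genes whose profile over the 6 libraries was most like the median profile of the 8 transporters were TMEM135, NMRK1, SFXN1, DYSF and MRC1, with a Pearson r of 0.997, 0.996, 0.995, 0.995 and 0.993. This is a description, since the libraries fall into 2 groups and 546 of the 10748 other tested genes with a symbol had an r above 0.9. TMEM135, for example, stood at 19.7, 13.6 and 14.7 CPM in CON and 3.92, 8.34 and 4.03 CPM in LPS, and MRC1, itself on the macrophage list, at 49.6, 42.8 and 39.1 CPM in CON and 12, 29.6 and 13.9 CPM in LPS. Both had LPS replicate 2 as the highest LPS library, as every transporter had. Since both were picked by this profile, that is no separate observation.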

How the data were processed

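Input RNA of piglet livers was compared between CON and LPS (3 libraries each). The m6A immunoprecipitates were not analysed here. The authors deposited 1 table with coordinates, exon length and unnormalized read counts of each gene. The kit preserves strand, and RNA was polyadenylated and sonicated. The submitters' processing notes name cutadapt 1.9.3 and HISAT2 and list the builds galGal6 and hg38, neither of them pig. Pig build, counting program and strand setting: not given in the sources used here. CON replicates 1 and 2 have 2 sequencing entries and 1 column each. No sequence was used.

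In R 4.3.3 and edgeR 4.0.16, genes were filtered (filterByExpr, minimum count 10), scaled by TMM and tested with glmQLFit and glmQLFTest without a replicate term (robust dispersions). Called genes had a Benjamini-Hochberg adjusted p below 0.05 over 12774 genes and a fold change above 1.5. A standard error is the fold change divided by the root of the test statistic. DESeq2 1.42.0, limma-voom (limma 3.58.1) and other settings were alternatives. Scripts were tested on simulated data.

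Members and lists were chosen with earlier results of these data known. Named genes are the members, 14 background genes, up to 4 per list with the smallest unadjusted p, and the 5 most similar profiles. CYP8B1, another background gene, is not paired with an identifier. S100A8, ASGR1, FGB and ARG1 were named after their values were seen. Some genes that this rule names are not reported here.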

Additional observations from a re-analysis of the deposited data

How the results depend on the processing

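The 7 transporters other than ATP8B1 kept a negative fold change under all 15 alternatives to the edgeR fit, and ATP8B1 did in 12. ATP8B1 turned to 0.05 without CON replicate 1 and 0.13 without LPS replicate 3. Scaled to the median change of hepatocyte markers (added after the data were seen), it was 0.17, a difference between group means of log2 level. With a library left out it was lowest at -0.32 (without LPS replicate 2). Called transporters numbered 0, but 4 without the count filter and 2 with DESeq2. With each library left out they ranged from 0 to 5, the 5 without LPS replicate 2, and transporters at an unadjusted p below 0.05 from 3 (without CON replicate 1) to 7, against 6. Both this number and the number with no overlap between groups were 4 when scaled to total counts, which moved the median of all genes from 0.01 to -0.12.

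Over all genes, 7 were called higher (790 at an unadjusted p below 0.05) and 0 lower (809). Total counts gave 11 and 1, RLE factors 1 lower, no count filter 536 and 349, DESeq2 258 and 146, limma-voom 2 higher, and at least 10 counts in every library 0 higher. Left-out libraries gave 0 to 512 higher and 0 to 470 lower, both maxima without LPS replicate 2. Without LPS replicate 3 they were 39 and 19. In the 4 bile lists, calls were 3 higher and 12 lower without the filter, 2 and 4 with DESeq2, 0 to 5 and 0 to 14 with a library left out (1 lower without LPS replicate 3). The cause was not tested.

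The replicate block gave 42 higher and 9 lower over all genes, 1 and 1 in the bile lists and 0 transporters. Deviations of same-numbered libraries correlated at -0.239, 0.219 and 0.0289. With 3 libraries per group these values cannot settle whether the numbers pair the libraries, and the labels do not say. The SLC10A1 to ABCB11 ratio difference ranged from -0.15 (without LPS replicate 1) to 1.09 (without LPS replicate 2) and the ABCC3 to ABCC2 difference from -0.39 (without LPS replicate 3) to 0.78 (without LPS replicate 2), against 0.55 and 0.17, and the ATP8B1 to ABCB11 difference of 2.20 from 1.18 (without LPS replicate 1) to 2.95 (without LPS replicate 2). Ratios with ABCB4 or SLCO1B3 were not run, nor was a promoter search.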
